A study of Mus musculus with 2 samples.

Results

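Interferon-stimulated genes are the genes that cells switch on in response to interferons, and their products sense foreign nucleic acid, block viral replication, modify other proteins, attack intracellular microbes and prepare peptides for presentation. The 46 genes described here were chosen by name, and a gene was looked up in the deposited files by the gene name that each called transcript carried. Together the libraries named 11054 genes with at least 1 called transcript, 9827 in control and 10106 after interleukin-4 (IL-4). By name, 37 of the 46 interferon-stimulated genes had a transcript in control and 38 had one after IL-4.

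The measurement was global run-on sequencing (GRO-seq), in which polymerases already engaged on DNA extend their RNA in isolated nuclei in the presence of a brominated nucleotide, so that nascent RNA is captured. The cells were bone marrow-derived macrophages (BMDMs) of wild-type C57BL/6 mice aged 8 to 12 weeks, grown for 6 days in L929 supernatant, a source of the growth factor M-CSF. One culture condition received no cytokine (control) and the other 20 ng/ml IL-4 for 1 h. Run-on reactions were pooled before library preparation, so each condition had 1 library (n = 1), and no value below has a replicate error or a test.

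Type I interferons bind a receptor of IFNAR1 and IFNAR2 chains, whose kinases JAK1 and TYK2 phosphorylate STAT2. A complex that holds STAT2 and IRF9 binds the interferon-stimulated response element (ISRE) in promoters, while the response to interferon-gamma runs through GAS elements. IL-4 acts through a different receptor and STAT6, a factor that prefers TTC and GAA with 4 bases between them. In macrophages many interferon-stimulated genes are transcribed at a low level before any infection.

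The ISRE is a promoter element through which type I interferon can act, so 6 promoters of the interferon-stimulated genes are printed first. Promoter sequence from RefSeq (GRCm38.p6, 250 bases before to 50 bases after each start site) was at hand for 37 of the 46 genes, in 43 windows. The core letters GAAANNGAA of the ISRE, searched on both strands, occurred in 20 of these windows (46.5%) and in 2812 of all 32851 promoter windows (8.56%). They were found for 19 genes. These were Bst2, Ddx58, Ddx60, Eif2ak2, Gbp2, Gbp3, Gbp7, Ifi44, Ifih1, Ifit1, Ifit3, Igtp, Irgm1, Isg15, Oas1a, Oas3, Rsad2, Slfn5 and Trim30a. The lines below give the 160 bases before the start site, 5′ to 3′ on the strand of the gene, with matches to the core in capitals (a match on the other strand appears as the reverse complement of the core).
Ifit1: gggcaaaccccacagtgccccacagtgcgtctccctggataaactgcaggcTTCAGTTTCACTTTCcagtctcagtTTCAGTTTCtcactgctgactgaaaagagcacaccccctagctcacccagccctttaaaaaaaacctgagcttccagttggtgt
Isg15: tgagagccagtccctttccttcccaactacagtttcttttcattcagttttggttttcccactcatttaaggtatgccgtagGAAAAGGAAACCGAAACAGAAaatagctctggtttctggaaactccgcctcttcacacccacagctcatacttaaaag
Gbp2: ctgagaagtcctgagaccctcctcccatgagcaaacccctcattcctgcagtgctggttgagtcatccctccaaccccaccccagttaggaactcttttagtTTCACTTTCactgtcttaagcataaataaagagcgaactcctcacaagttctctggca
Oas1a: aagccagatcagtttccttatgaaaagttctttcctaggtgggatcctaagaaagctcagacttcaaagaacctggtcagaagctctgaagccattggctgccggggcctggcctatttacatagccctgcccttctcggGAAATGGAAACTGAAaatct
Rsad2: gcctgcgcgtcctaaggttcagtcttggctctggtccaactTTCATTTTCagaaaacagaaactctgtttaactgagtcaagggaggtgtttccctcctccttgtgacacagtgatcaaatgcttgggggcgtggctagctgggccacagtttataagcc
Irgm1: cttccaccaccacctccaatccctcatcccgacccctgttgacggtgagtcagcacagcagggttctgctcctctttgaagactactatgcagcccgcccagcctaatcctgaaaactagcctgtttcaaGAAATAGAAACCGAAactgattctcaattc
Ifit1, Isg15 and Gbp2 are shown because they had few or no called transcripts, Oas1a and Rsad2 because their ratios lay at the opposite ends of the range (Oas1a tied with Oasl2), and Irgm1 because nascent RNA was called on both strands at its promoter. In Ifit1 (chr19:34640729-34640888, plus strand) the 3 matches began 109, 103 and 84 bases before the start site, the first of them overlapping the next. In Isg15 (chr4:156200819-156200978, minus strand) 3 overlapping matches began 78, 72 and 66 bases before it. The single match of Gbp2 (chr3:142620503-142620662, plus strand) began 58 bases before the start site, and that of Rsad2 (chr12:26456453-26456612, minus strand) 119 bases before it. Oas1a (chr5:120907526-120907685, minus strand) had 2 overlapping matches, 20 and 14 bases before the start site, and Irgm1 (chr11:48871421-48871580, minus strand) had 2 at 30 and 24 bases.

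The GAS letters TTCNNNGAA, which read the same on both strands, were present in 10 of the 43 windows (23.3%, against 8.3% of all windows), those of Bst2, Eif2ak2, Gbp7, Ifi35, Ifit2, Igtp, Isg20, Oas1a, Psmb8 and Samhd1. TTC and GAA separated by 4 bases occurred in 5 windows (11.6%, against 6.95% of all windows), of Dtx3l, Gbp3, Ifit2, Isg20 and Oas1a. Oas1a held all 3 patterns. A match is a description of letters in the window and not of a bound site. Windows for Parp9, Mx2, Dhx58, Usp18, Parp14, Oas2, Ifi204, Mx1 and Zbp1 were not analysed here.

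The deposited score of a called transcript is a number rounded to 1 decimal with no stated unit, and a gene's value was the highest score among transcripts with its name. The control library held 43122 transcripts (median length 227 bp, median score 0.3) and the IL-4 library 51365 (312 bp, 0.2). The files used here hold scores and not counts, so the depth is unknown. Across 8879 genes valued in each library, the log2 ratio (IL-4 over control) had a median of -0.38, and every ratio below is centred on it, so that equal printed scores give a centred ratio of 0.38. The range of ratios that the rounding of both scores allows is given as the rounding range, which is not a replicate error. Of 11 known IL-4 target genes, 6 had a value by name in each library and 3 of these were at least 2-fold higher after IL-4, namely Socs1, Mrc1 and Ccl17. By position on the gene's own strand, described below, 3 had a value in each library and 2 were higher, without Ccl17 (0.4 and 1.0 by name). Socs1, a feedback inhibitor of JAK signalling, scored 0.3 in control and 2.5 after IL-4, Mrc1 scored 2.7 and 13.1, and Cish, Egr2 and Arg1 had a transcript by name in the IL-4 library and none in control. Arg1 had none on its own strand. Klf4 scored 0.3 and 0.4 by name, Irf4 1.7 and 1.2, and Pparg 4.6 and 2.8 (ratios 0.79, -0.12 and -0.34). On their own strands Pparg had the same scores and Klf4 had no transcript. Irf4 had none on its own strand in control and scored 0.4 there after IL-4. Retnla and Chil3 had no transcript by name, but Chil3 scored 0.3 on its own strand after IL-4 alone. By name, the macrophage markers summed to 19.9 in control and 18.4 after IL-4, with Csf1r at 5.6 and 4.6. Cd68 gave 5.8 and 7.3 of these sums, but scored only 1.2 and 0.8 on its own strand. No transcript carried the name of the fibroblast genes Col1a1, Col1a2, Col3a1 and Dcn, and none carried Cd3e, Cd4, Ms4a1, Ly6g, Elane or Siglech. The highest value by name among the lymphocyte and neutrophil markers was 0.6 in control and 0.8 after IL-4, both of Cd8a. Cd8a, Cd3d and Cd79a had no transcript on their own strands in either library. Of the plasmacytoid dendritic cell list, Tcf4 scored 1.8 and 1.6 and Ccr9 scored 0.3 in control, though Ccr9 had no own-strand transcript. The part of such cells in the results was not tested.

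Highest scores of the interferon-stimulated genes with a called transcript were close to those of all genes with one. Their median value by name was 0.4 in control (37 genes, range 0.2 to 2.8), against 0.5 over all named genes, and 17 of the 37 were at or above that median. After IL-4 the median was 0.4 (38 genes, range 0.1 to 2.0), against 0.3 over all genes, and 31 of the 38 were at or above that value of 0.3. Rounded scores can tie at a median, and the share of all genes at or above it was not computed. These counts are therefore not read as a shift. A transcript in both libraries was found for 37 genes. Isg15, the ubiquitin-like modifier, was called by name after IL-4 alone, with 1 transcript of score 0.1 in exon 2. Ifit1, Ifit2, Isg20, Ifi44, Rnf213, Gbp2, Gbp3 and Gbp7 had no transcript by name in either library.

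Relative to all genes, 4 of the 37 interferon-stimulated genes were at least 2-fold higher after IL-4 (10.8%, where 8.06% of all genes were). These were Oas1a, Oasl2, Ifi47 and Zbp1. Another 3 (8.11%, where 8.62% of all genes were) were at least 2-fold lower, namely Rsad2, Samhd1 and Ifi35. The rounding range lay wholly past 2-fold for 2 higher genes (5.41%, against a background of 3.67%), Oas1a and Oasl2, and for 1 lower gene (2.7%, against 3.85%), Rsad2. For 14 of the 37 the rounding range included no change. The median centred ratio of the 37 genes was -0.04, with quartiles of -0.36 and 0.38, beside quartiles of -0.51 and 0.38 over all genes. The spread was also alike, with an SD over genes of 0.78 for the interferon-stimulated genes and 0.78 for all genes. The shares of called genes were thus near the background in both directions. In a bulk library, fewer transcribing cells and less RNA per cell cannot be told apart.

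**Figure D1:**
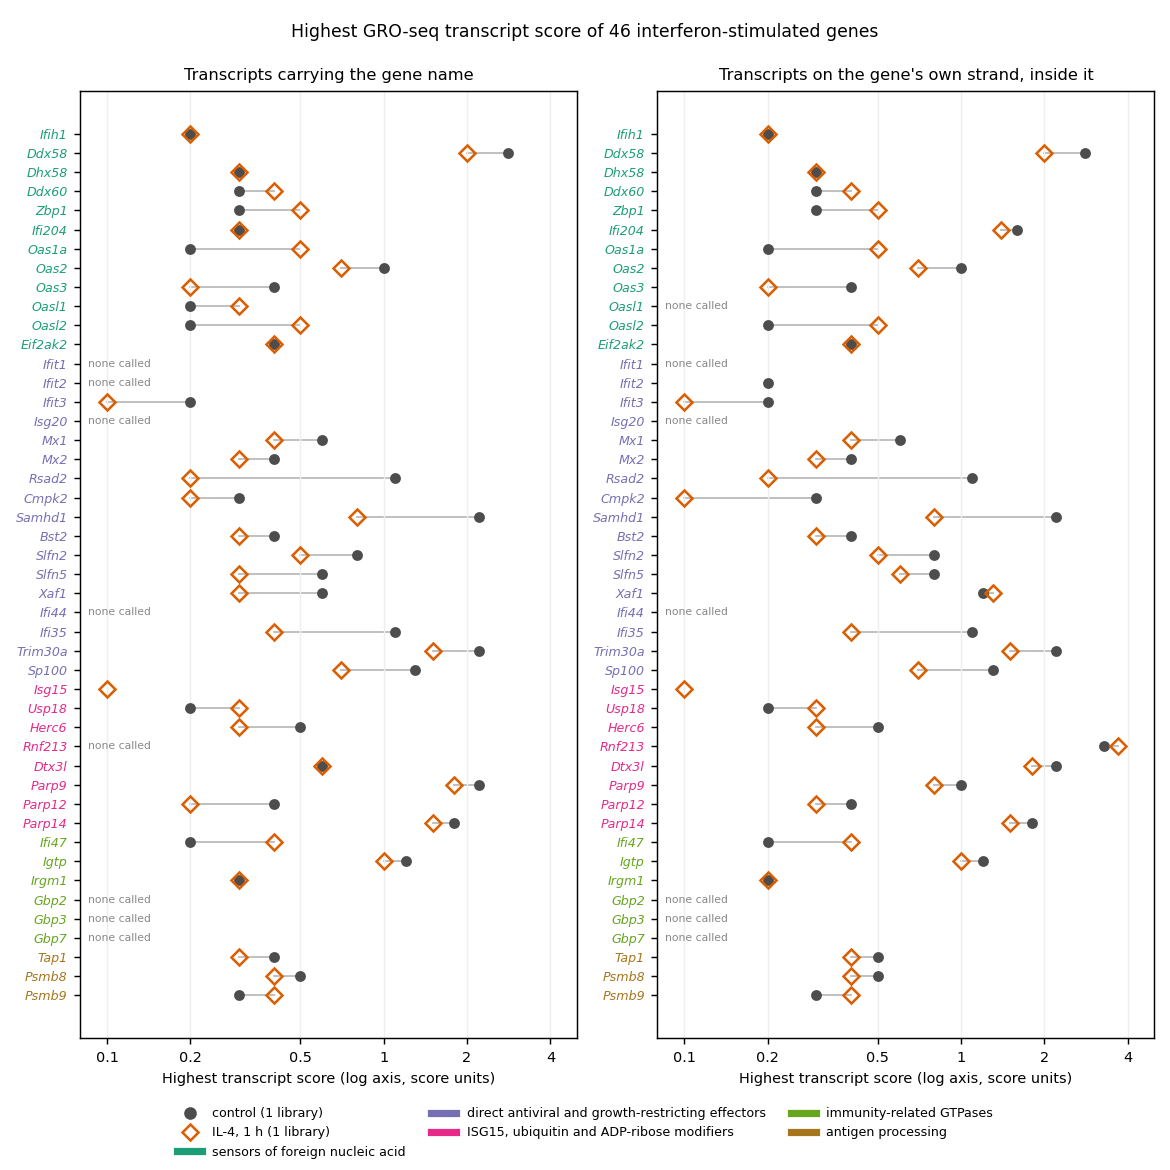
Highest GRO-seq transcript score of the 46 interferon-stimulated genes (log axis, in the deposited score units, 1 library per condition), from transcripts that carry the gene's name (left) and from transcripts on the gene's own strand inside it (right). Filled circles are control and open diamonds IL-4 for 1 h, gene names are coloured by role, and most genes sit between 0.2 and 1 in both libraries.

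Sensors of foreign nucleic acid made up 12 of the genes, and all 12 had a transcript by name in both libraries. Their centred ratios ran from -0.62 to 1.70 with a median of 0.38, and 3 of the 12 were at least 2-fold higher and 0 lower, where 8.06% and 8.62% of all genes were. Oas1a, an enzyme that makes the oligoadenylate that activates RNase L, scored 0.2 in control, and its score of 0.5 after IL-4 gave a centred ratio of 1.70 (rounding range 1.23 to 2.25). Both values came from intron 3, at chr5:120899943-120900342 in control and chr5:120899760-120900089 after IL-4, segments that overlap and that the files annotate to a LINE and a SINE repeat. Oasl2, an Oas relative, also scored 0.2 and 0.5. Its IL-4 transcript of 496 bp lay in intron 3 (chr5:114904487-114904982), over a control transcript of score 0.2, and 7 own-strand control transcripts across the gene shared that score of 0.2. The Oasl2 ratio was 1.70 by the highest score, 0.68 by the sum of scores and 0.76 by the sum of score times length. Zbp1, a sensor of Z-form nucleic acid, scored 0.3 in control and 0.5 after IL-4 (ratio 1.12, rounding range 0.74 to 1.52). Both values came from overlapping segments, chr2:173213316-173213689 in control and chr2:173212782-173213701 after IL-4, which the files class as a transcript end although they lie inside the longest gene model.

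Ddx58, which encodes the RNA sensor RIG-I, had the highest score by name of all 46 genes, 2.8 in control and 2.0 after IL-4 (ratio -0.11). Its top transcript lay in a simple repeat of intron 3 in both libraries (chr4:40228737-40228875 in control, chr4:40228743-40228868 after IL-4). The second, in intron 2, scored 2.6 and 1.4, and the IL-4 library added 4 further transcripts of score 0.1 inside the gene on its strand. Oas2 scored 1.0 in control, from intron 5 (chr5:120738690-120739120), and 0.7 after IL-4, from intron 3 (chr5:120742978-120744018). At the intron 5 site the IL-4 transcript scored 0.3, whereas the intron 3 site scored 0.7 in both libraries, so the Oas2 maximum came from different places. Ifih1 (0.2 and 0.2), Dhx58 (0.3 and 0.3), Eif2ak2 (0.4 and 0.4) and Ifi204 (0.3 and 0.3) had equal printed scores in control and after IL-4. These encode the RNA sensors MDA5 and LGP2, the RNA-activated kinase PKR and a DNA sensor. The Eif2ak2 values came from different places, an opposite-strand simple repeat outside the gene in control and intron 1 on its own strand after IL-4. Its highest own-strand score was also 0.4 in both libraries. Ddx60 scored 0.3 and 0.4, Oas3 scored 0.4 and 0.2, and Oasl1 scored 0.2 and 0.3.

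Direct antiviral and growth-restricting effectors were 17 genes, of which 13 had a value in both libraries. All 13 had a centred ratio below 0 by name, from -2.08 to -0.04 with a median of -0.51, and 3 were at least 2-fold lower and 0 higher. Of all 8879 genes 4439 had a ratio below 0, 8.62% were at least 2-fold lower and 8.06% higher. On the own strand, described below, 3 of these 13 were at 0 and Xaf1 was at 0.53, so the common sign depended on the naming. It also depended on the gene value, since Samhd1 and Ifi35 had ratios of 0.56 and 0.85 by the sum of score times length. Rsad2, which encodes viperin, an enzyme that makes a chain-terminating nucleotide, scored 1.1 in control and 0.2 after IL-4 (ratio -2.08, rounding range -2.56 to -1.69). The control value came from a segment of 106 bp in the 3′ UTR, in exon 6 (chr12:26444103-26444208), and the IL-4 value from an overlapping segment of 235 bp (chr12:26444134-26444368). One further Rsad2 transcript, of score 0.1 in the same exon, was called in control, and none was called near the start of the gene in either library.

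Samhd1, a hydrolase that depletes the nucleotides used for DNA synthesis, scored 2.2 in control and 0.8 after IL-4 (ratio -1.08, rounding range -1.21 to -0.96). The control value came from a segment of 48 bp over exon 2 (chr2:157129860-157129907). After IL-4 the overlapping segment was 216 bp long and scored 0.8, so score times length was 105.6 in control and 172.8 after IL-4, the opposite order. At the start of Samhd1 the transcript scored 0.5 in control and 0.8 after IL-4. Ifi35, an interferon-induced leucine zipper protein, scored 1.1 in control, from a segment of 65 bp in intron 1 (chr11:101455480-101455544), and 0.4 after IL-4, from an overlapping segment of 235 bp (chr11:101455444-101455678). Here too score times length, 71.5 in control and 94.0 after IL-4, had the opposite order. Short segments were common among lower genes in the whole series. Of the 765 genes at least 2-fold lower, 37.4% had a control value from a segment under 100 bp, whereas 18.8% of all 8879 genes did.

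Trim30a, a ubiquitin ligase of the tripartite motif family, scored 2.2 in control and 1.5 after IL-4 (ratio -0.17), in a repeat of intron 1 (chr7:104449572-104449750 in control). Sp100, a nuclear body protein, scored 1.3 and 0.7 (ratio -0.51), from a low-complexity stretch of intron 11 that was called at nearly the same place in both libraries (chr1:85689795-85689915 and chr1:85689792-85689911). The other effectors with a value in both libraries were lower in printed score after IL-4. Slfn2 scored 0.8 and 0.5, Slfn5 and Xaf1 each 0.6 and 0.3, and Mx1, a dynamin-like antiviral GTPase, 0.6 and 0.4. Mx2 and Bst2 each scored 0.4 and 0.3, Cmpk2 0.3 and 0.2, and Ifit3 0.2 and 0.1. The annotation lists Mx2 as a polymorphic pseudogene.

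The modifiers of the ISG15, ubiquitin and ADP-ribose systems were 8 genes, 6 with a ratio by name, from -0.62 to 0.96 with a median of 0.10, and none reached 2-fold. Parp14, an ADP-ribosyltransferase, had the most transcripts by name of the 46 genes, 32 in control and 34 after IL-4. It scored 1.8 in intron 4 in control (chr16:35860791-35861057) and 1.5 after IL-4 over exon 5 (chr16:35860197-35861041), a ratio of 0.12. Parp9, which works with the ubiquitin ligase Dtx3l, scored 2.2 and 1.8 by name (ratio 0.09). That transcript (chr16:35928102-35928495 in control) lay on the minus strand in the last exon of the neighbouring Dtx3l gene and not in Parp9, which is on the plus strand. On their own strands Parp9 scored 1.0 and 0.8, and Dtx3l 2.2 and 1.8. Usp18, the protease that removes ISG15, scored 0.2 and 0.3, both at its start site. Herc6, the mouse ligase for ISG15, scored 0.5 and 0.3, and Parp12 scored 0.4 and 0.2.

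Among the 6 immunity-related and guanylate-binding GTPases, which act on the vacuoles of intracellular microbes, 3 had a value, with ratios from 0.12 to 1.38. Ifi47 scored 0.2 in control and 0.4 after IL-4 (ratio 1.38, rounding range 0.86 to 1.96). The 2 IL-4 transcripts of score 0.4 lay in simple repeats of intron 2 (chr11:49087400-49087698 and chr11:49090395-49090539) and had no control counterpart, while the transcript at exon 2 and the start of intron 2 scored 0.2 in both libraries. Without repeat-annotated transcripts the Ifi47 ratio was 0.32. Igtp scored 1.2 and 1.0 (ratio 0.12), in intron 2 (chr11:58202138-58202272 in control), a place where the annotated gene Irgm2 overlaps it. Irgm1 scored 0.3 in both, at its promoter, but from different transcripts. The control one was on its own strand outside the gene, and the IL-4 one on the opposite strand. Its highest score on its own strand inside the gene was 0.2 in both libraries. Gbp2, Gbp3 and Gbp7 had no called transcript on either naming. The 3 antigen-processing genes were the peptide transporter gene Tap1 (0.4 and 0.3) and the immunoproteasome subunit genes Psmb8 (0.5 and 0.4) and Psmb9 (0.3 and 0.4), with ratios from -0.04 to 0.79. The segment named Psmb8 lies in intron 9 of Tap1.

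**Figure D2:**
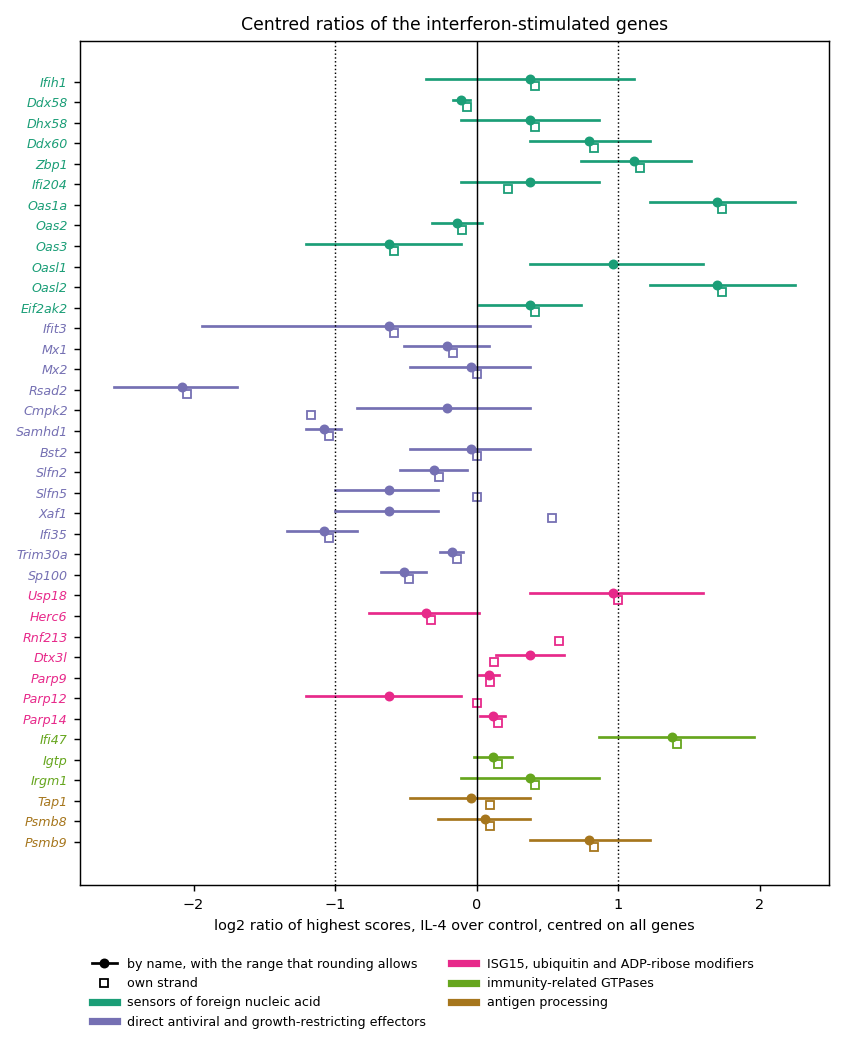
Centred log2 ratio of highest scores, IL-4 over control, for interferon-stimulated genes with a value in both libraries (1 library each). Circles with lines are by name with the range that rounding allows, open squares are own-strand values, and dotted lines mark 2-fold, which 4 genes passed upward and 3 downward by name.

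Since names follow the nearest start site, transcripts were also assigned by position, requiring an overlap of at least 1 bp with the gene on its own strand (GENCODE M21). Of 278 such transcripts inside the 46 genes in control, 124 (44.6%) carried another gene's name, as did 151 of 346 (43.6%) after IL-4. Rnf213, a large ubiquitin ligase, was the main case. Its own strand carried 61 control and 77 IL-4 transcripts, all named for Mir1932 or Endov, with a highest score of 3.3 in control and 3.7 after IL-4 at a simple repeat 29188 bp into the gene (chr11:119422105-119422471 in control). Ifi204 scored 1.6 and 1.4 on its own strand and Xaf1 1.2 and 1.3. Ifit2 had 3 transcripts in control, of score 0.2 at most and named Ifit3, and none after IL-4. The transcripts named Oasl1 did not overlap that gene on its strand, and some of them lay in the last exon of Oasl2.

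By position, 37 genes again had a value in both libraries, and 38 had one in each library (82.6% of the 46, where 36.0% of protein-coding genes had one in control and 37.7% after IL-4). Over 7212 genes the median log2 ratio before centring was -0.42. Of the 37, 5 were at least 2-fold higher (13.5%, where 11.6% of all genes were), the 4 above and Usp18, and 4 were at least 2-fold lower (10.8%, where 8.37% were), the 3 above and Cmpk2. Over the whole rounding range 2 genes were higher (background 3.56%) and 1 was lower (background 3.2%). Cmpk2, a mitochondrial nucleotide kinase gene beside Rsad2, scored 0.3 and 0.1 on its own strand, and its IL-4 value of 0.2 by name belonged to an opposite-strand transcript at its promoter. The median centred ratio of the 37 genes was 0.09. Reads from near-identical relatives, such as the Oas1, Mx, Slfn, Ifi200 and Trim30 families, could be placed on the wrong copy, and their part in these values was not tested.

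Called transcripts covered a larger share of these genes than of protein-coding genes in general, and in most of them more after IL-4. Own-strand transcripts covered 73026 bp, or 6.56% of the summed length of the 46 genes, in control and 144657 bp, or 13.0%, after IL-4. Rnf213 alone gave 19315 bp and 40773 bp of these. For all protein-coding genes, most of them with no transcript, the shares were 0.871% and 1.5%. Among genes with a transcript in both libraries the median share was 6.16% for the interferon-stimulated genes and 2.44% for all genes in control, and 15.0% and 3.52% after IL-4. Among the 37 genes with a transcript in both libraries, covered length was larger after IL-4 in 32 (86.5%, against 70.7% of 7212 genes) and at least 2 times as large in 16 (43.2%, against 30.3%). The median ratio of covered length was 1.9 for the 37 genes and 1.41 for all. Across the IL-4 library transcripts were also longer and more numerous, and the part of this in the covered lengths was not tested. Zbp1 had 4 own-strand transcripts over 999 bp (8.11% of its length) in control and 9 over 5002 bp (40.6%) after IL-4, and its mean score over covered bases was 0.19 in control and 0.30 after IL-4.
Covered length in Irgm1 was 158 bp without and 1621 bp with IL-4, at mean scores of 0.2 and 0.13, and Ddx58 over 210 bp and 2332 bp, at 2.73 and 0.40. Parp14 was covered over 7276 bp and 14184 bp at about the same mean score, 0.50 and 0.51. In the other direction, 5 of the 37 had a smaller covered length after IL-4. Covered lengths in control and then IL-4 were 1084 and 395 bp for Mx2, 411 and 235 bp for Rsad2 and 220 and 141 bp for Usp18. The differences were small for Ifit3 (457 and 408 bp) and Ifi35 (634 and 585 bp). Slfn2 and Bst2 had the largest covered shares, 38.0% and 45.8% in control and 72.4% and 59.4% after IL-4.

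**Figure D3:**
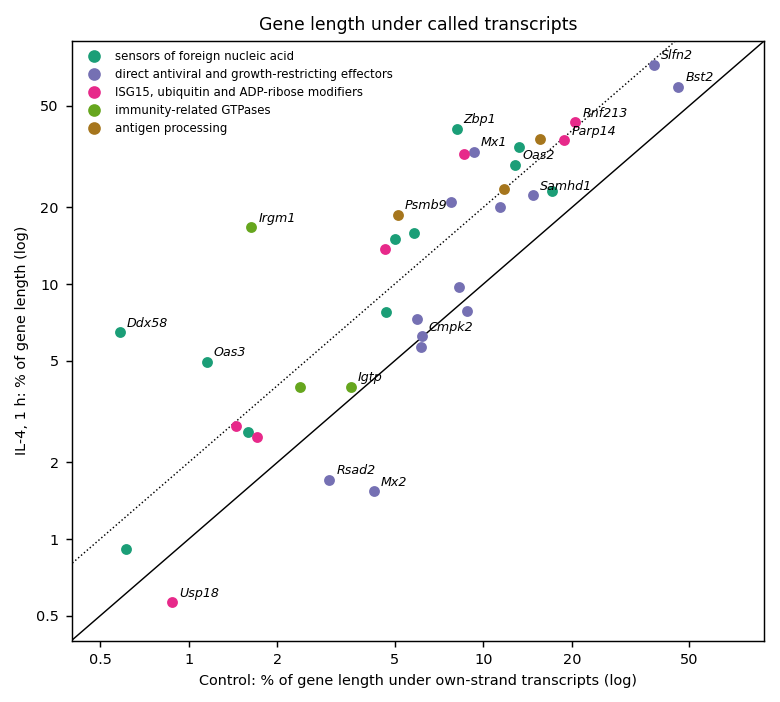
Share of gene length under own-strand called transcripts in control (x, %) and after IL-4 for 1 h (y, %), both on log axes, 1 point per interferon-stimulated gene with a transcript in both libraries, coloured by role. The solid line marks equal shares and the dotted line 2 times the control share, and 32 of 37 genes lie above the solid line.

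Transcripts at the same place were compared next, without centring. Of the 278 own-strand control transcripts inside the genes, 209 (75.2%) overlapped an IL-4 transcript on the same strand, as did 62.6% of all control transcripts. All control transcripts are a wider set, since they include those between genes and on opposite strands. Rnf213 gave 61 of the 278 and Parp14 gave 30. The printed score was lower after IL-4 for 96 of the 209 (45.9%), equal for 58 (27.8%) and higher for 55 (26.3%). Over all matched transcripts these shares were 54.1%, 22.9% and 23.0%. The IL-4 transcript was the longer of the pair in 166 (79.4%), against 72.0% over all, and the median lengths of the pairs were 235 bp and 351 bp.

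An own-strand transcript with its 5′ end within 500 bp of an annotated start site was called for 27 of the genes in control and 29 after IL-4, and for 26 in both. The counts per library were 58.7% and 63.0% of the 46 genes, against 29.0% and 32.6% of all protein-coding genes. The score of the start-site transcript was lower after IL-4 in 9 of the 26, equal in 5 and higher in 12, before centring. Over 5676 protein-coding genes with such a transcript in both libraries, 46.7% were lower, 26.3% equal and 27.0% higher. The median start-site score was 0.3 in both libraries, for the 26 genes and for all genes alike. Start-site scores were higher after IL-4 for Samhd1 (0.5 and 0.8), Parp14 (0.4 and 0.7), Rnf213 (0.3 and 0.6), Eif2ak2 (0.2 and 0.4), Ifi47 (0.2 and 0.4), and the neighbours Dtx3l and Parp9 (each 0.2 and 0.4). They were lower for Slfn2 (0.8 and 0.5), Parp12 (0.4 and 0.2) and Cmpk2 (0.2 and 0.1). The Ifi47 score of 0.4 came from an intronic simple-repeat segment with no control counterpart. Ifi47, counted among the 12, was therefore compared at different segments. Of the genes with any own-strand transcript, 71.1% had one at a start site in control and 76.3% after IL-4, below the 80.3% and 86.2% of all such genes. Ddx58, Ifi204, Oasl2, Rsad2, Trim30a, Igtp and Irgm1 had own-strand transcripts in both libraries and none that began at a start site. An opposite-strand transcript began within 500 bp of a start site at 11 of the genes in control (23.9%, against 13.0% of protein-coding genes) and 13 after IL-4 (28.3%, against 15.8%). Among genes that also had an own-strand transcript there, the shares were nearer, 33.3% against 30.4% in control and 41.4% against 37.1% after IL-4. Dtx3l and Parp9, like Tap1 and Psmb9, are neighbours on opposite strands with starts close together, and all were counted in both libraries. The opposite-strand transcript of such a gene can be its neighbour's own, which was not tested. At Irgm1 the opposite-strand transcript scored 0.3 in both libraries (chr11:48871542-48871901 in control). It was called after IL-4 alone at Usp18 and Cmpk2, at 0.2 each, and at Eif2ak2 and Samhd1, at 0.1 each, and in control alone at Ifih1 and Parp14, at 0.1 each.

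**Figure D4:**
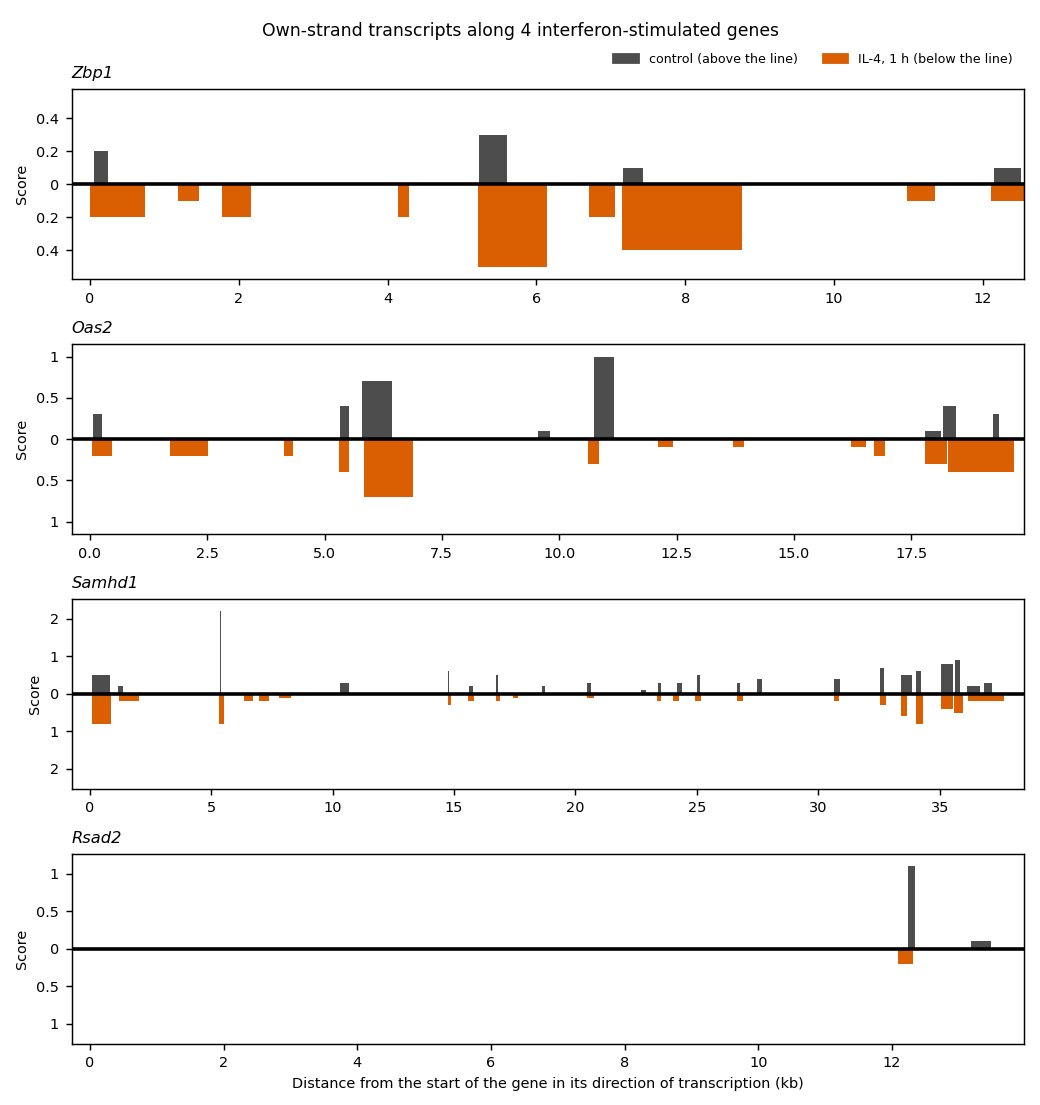
Own-strand called transcripts along Zbp1, Oas2, Samhd1 and Rsad2, by distance from the start of the gene (x, kb) and score (y), with control above the line and IL-4 for 1 h below it, 1 library each. Zbp1 shows 4 control segments and 9 IL-4 segments, the control maximum of Samhd1 is a narrow segment of 48 bp, and Rsad2 had transcripts in its last exon alone.

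Repeats coincided with many of the highest values. The highest own-strand transcript carried a repeat annotation in 14 of 38 genes in control (36.8%, against 23.2% of all protein-coding genes with a transcript) and in 10 of 38 after IL-4 (26.3%, against 18.9%). A simple repeat or low-complexity stretch was named in 9 (23.7%, against 13.6%) and 6 (15.8%, against 9.61%). Introns held 64.6% of the 192 transcripts named for the genes in control (Wilson 95% interval 57.6% to 71.0%) and 66.7% of the 255 after IL-4 (60.7% to 72.2%), near the 64.3% and 65.2% of all transcripts. Exons held 13.0% and 11.8%, against 8.16% and 8.34%. These intervals cover the counting of transcripts within a library and no variation between cultures.

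Nascent RNA was set beside the ISRE core next. Of the 19 genes with the core in a promoter window, 13 had an own-strand transcript in control and 14 after IL-4, and of the 18 genes without it 16 and 15 did. In both libraries a start-site transcript was called for 7 of the 19, whereas 12 and 14 of the 18 had one. Over all protein-coding genes, 29.0% had one in control and 32.6% after IL-4. On the own strand 1 of the 13 genes with the core and a ratio was at least 2-fold higher (Oas1a) and 1 lower (Rsad2), and of the 15 without it 2 were higher and 3 lower, where 11.6% of all genes were higher and 8.37% lower. The median centred ratio was 0.0 with the core and 0.09 without. Of the 9 genes whose promoter was not analysed, 8 had a start-site transcript in each library, and 2 were higher and 0 lower.

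Other genes of the interferon pathway gave the setting for these values. All 14 receptors, kinases and factors had a value by name in both libraries, and 2 were at least 2-fold higher (Socs1 and Socs3, both feedback inhibitors) and 1 lower (Jak1, 7.5 and 2.8). The shares over all genes were 8.06% higher and 8.62% lower by name, here and for the lists that follow. Stat2 scored 0.8 in control and 1.1 after IL-4, and Irf9 scored 0.4 and 0.5. Among 16 inducers of interferon 13 had a value in both, with 1 higher and 3 lower. Irf7, a factor that drives interferon genes and is itself interferon-induced, scored 0.5 and 1.0, the endosomal receptors Tlr7 and Tlr9 scored 2.7 and 0.5 and 0.6 and 0.2, and Irf3 scored 0.8 and 0.3. On the own strand the count was 1 higher and 1 lower of 12, and neither Irf3 (0.2 in both libraries) nor Tlr7 (0.7 and 0.3, ratio -0.81) was among them. Ifnb1, the interferon-beta gene, had no called transcript in either library. Of 45 further interferon-induced genes 29 had a value in both, with 4 higher (Gbp8, B2m, Psmb10 and Cd274) and 1 lower (Trim30d), and a median centred ratio of 0.38. By own strand 7 of 27 were higher and 1 lower, where 11.6% and 8.37% of all genes were. The 7 were the same 4 with Tap2, Psme1 and Psme2, and the lower gene was Ifitm2. Trim30d scored 1.0 and 0.7 on its own strand (ratio -0.10). Cd274, the gene for the inhibitory ligand PD-L1, scored 0.4 in control and 1.2 after IL-4. The chemokine genes Cxcl9 and Cxcl10 had no called transcript.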

How the data were processed

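GRO-seq was measured in 1 control and 1 IL-4 library of BMDMs. The authors aligned reads to mm10, removed artifact regions, called transcripts per library with the GRO-seq mode of HOMER and annotated them with HOMER. The submitters' processing notes name BWA 0.7.10, SAMtools 0.1.19 and HOMER 4.2. The deposited measurement was a score per transcript, rounded to 1 decimal by the authors, with scaling not given in the sources used here. Depth is unknown, so no interval that needs it was given.

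A gene's value was the highest score by name. Log2 ratios were centred on the median gene and called at 2-fold, with no test, since there was 1 library per condition. Rounding ranges take each score as known to within 0.05. Own-strand values used GENCODE M21 (GRCm38), in protein-coding genes and the 46 genes. Distances to start sites were computed from that annotation. Shares have 95% Wilson intervals. Genes described in full were those called at 2-fold by name and those with the 10 highest scores, and the remaining genes were given by role. Rnf213, Irgm1, Usp18, Cmpk2, Mx2, Xaf1 and the printed promoters were singled out after their values were seen. The interferon-stimulated genes and the other lists were chosen with earlier results of these data known. The code that computes ratios was checked on simulated scores. Python 3.11.15, pandas 2.3.3, numpy 2.4.6 and scipy 1.17.1 were used. Alternatives were other gene values, other assignments of transcripts, filters on repeats, class, level and length, another threshold, no centring and missing values at the lowest score. The filter on length and 2 own-strand variants were added after seeing the data.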

Additional observations from a re-analysis of the deposited data

How the results depend on the processing

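Depth is unknown, each condition had 1 library, and scores are rounded to 1 decimal, so low scores such as 0.2 and 0.3 cannot be told apart with confidence. No paired analysis was possible because each condition had 1 library and no test was made.

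By name, 4 genes were at least 2-fold higher and 3 lower. The higher count was 8 with the sum of scores (13.6% of all genes), 7 with the sum of score times length (17.2%), 8 with own-strand score times length (16.6%), 8 at a 1.5-fold threshold (20.2%) and 2 where the whole rounding range had to pass (3.67%). The lower count was 10 with the transcript nearest the start site (27.7% of all genes), 5 without repeat-annotated transcripts (11.3%), 6 by own strand without them (11.3%), 8 without centring (24.3%), 8 at 1.5-fold (24.4%) and 1 over the whole rounding range (3.85%). The nearest transcript was taken on either strand, so control and IL-4 could be compared at different transcripts. Of the 10, Samhd1 and Eif2ak2 had higher own-strand start-site scores after IL-4, and Bst2, Parp12 and Psmb8 had lower ones. The median ratio was -0.04, 0.59 with the sum of score times length and -0.42 without centring. Samhd1 turned to a positive ratio with the sum of score times length (0.56), with transcripts of at least 100 bp (0.94) and with own-strand score times length (0.028). Ifi35 did so with the sum of score times length (0.85), without repeat-annotated transcripts (2.32), by own strand without them (1.32) and with transcripts of at least 100 bp (2.26). In these settings the short control segments are left out or weighted by their length. Rsad2 was at least 2-fold lower in all 12 settings that recompute the ratios, and Zbp1 was at least 2-fold higher in all but the transcript nearest the start site and no centring. With the transcript nearest the start site, Oas1a, Oasl2, Ifi47 and Zbp1 were each at 0.0. Oas1a had no value in both libraries without repeat-annotated transcripts. The number of genes with a transcript in both libraries was 37 by name and by own strand, 34 without repeat annotations and 26 at scores of at least 0.3.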

Other observations

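Some transcripts named for the interferon-stimulated genes lay outside them. By name, 34 of 192 transcripts in control and 53 of 255 after IL-4 lay outside the gene, and 19 and 36 were on the opposite strand. Upstream of Trim30a, an intronic segment of another gene model, on the same strand, scored 1.0 in control and 0.7 after IL-4 (chr7:104473722-104474099 in control). Upstream of Irgm1, 2 intergenic segments of score 0.2 and 0.1 were called in control.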
